A study of Homo sapiens with 49 samples.

Results

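The comparison described here set Ishikawa cells kept with 10 pM ethinyl estradiol (EE) against cells kept with the vehicle alone. Ethinyl estradiol is the synthetic estrogen of oral contraceptives. Its members were the 6 arrays titled with that concentration and the 6 arrays titled as controls, chosen by title, so that 12 of the 49 arrays of the series were compared. Ishikawa is an established line of human uterine epithelial adenocarcinoma cells. Cells of every group were grown in phenol red-free medium with charcoal-stripped serum before treatment, and were then exposed for 72 h to EE or to ethanol at the same volume share. The other 37 arrays held 7 at 0.3 pM EE, and 6 for each of the concentrations 0.1, 1, 3, 100 and 1000 pM. They entered the fit to estimate the spread, and the groups at 0.1, 0.3, 3, 100 and 1000 pM served as further reference levels.

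Estrogens enter the cell and bind estrogen receptors, which are transcription factors that attach to DNA directly, or through partners such as AP-1, and recruit coactivators or corepressors. In the endometrium, estrogen acting through estrogen receptor alpha drives epithelial growth and induces the progesterone receptor, through which progesterone later acts. Ishikawa cells are known for estrogen-responsive alkaline phosphatase activity. Binding and activity were not measured here; each value below is a log2 expression level of a gene's probe set, or a difference of such levels, where a difference of 1 is a doubling.

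The arrays were alike in overall signal, with median log2 levels between 2.95 and 3.05 and 38.2% to 39.4% of their probe sets over 4 on the log2 scale, the floor under which a level was taken as not measured. One array stood apart. In vehicle replicate 5 the 3′ control probe set of beta-actin exceeded the 5′ one by 4.62 (log2), against 0.81 to 2.06 on the other 11 arrays, and the same difference for GAPDH was 1.79 against −0.21 to 0.19. Its genes deviated from the vehicle mean with an SD of 0.561 (log2), against 0.122 to 0.206 on the other arrays. The counts of calls, and the genes whose values it moves, are therefore given without it as well. All 12 epithelial markers, among them EPCAM at 11.36 ± 0.13 with vehicle and 11.44 ± 0.13 at 10 pM (SD, n = 6), and the Mullerian factors PAX8, SOX17 and EMX2 lay above the floor on all 12 arrays. The 5 immune and 4 endothelial markers, and the stromal markers DCN, LUM, PDGFRA and HAND2, did not exceed the floor on any of them, while the stromal marker COL3A1 did on all. Whether the 6 replicates of a group were grown as separate cultures is not given in the labels, and the p-values thus reflect the spread among these arrays alone, which may be technical.

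At 10 pM EE, 95 of 11075 genes (0.858%) differed from vehicle by limma at an adjusted p under 0.05; 56 (0.506%) were higher and 39 (0.352%) lower. The rises were the larger changes. Among the higher genes the median log2 difference was 0.62. By fitted difference alone, without regard to the floor, 29 reached 1.5-fold and 11 2-fold, led by the progesterone receptor gene PGR and OLFM1. The 11 include NPPC, under the floor in both groups, and DHRS3, given below as at least 1.95-fold higher. They also include AFF3, whose difference of 1.11 was 0.77 without vehicle replicate 5. The 29 also include EGR3 and ATXN7L1, whose means were under the floor in both groups. KCNJ1, at least 1.17-fold higher, is among them too, and it and ATXN7L1 were named after their values were seen. Among the lower genes the median was −0.35, 5 had fallen at least 1.5-fold and 0 at least 2-fold. The median over all genes tested was −0.01. An unadjusted p under 0.05 was found in 1414 genes with all arrays and in 766 without vehicle replicate 5. Single arrays moved the count of lower genes: 81 were lower (145 called in all) without vehicle replicate 6, and 24 without 10 pM replicate 3 or without 10 pM replicate 5. The groups did not overlap in 41 of the 56 higher genes, where 0.497% of all genes lay wholly above vehicle, and in 22 of the 39 lower genes, where 0.388% lay wholly below. Nearest to the threshold, ARHGAP23 was just inside (difference −0.28, limma adjusted p = 0.0494) and BBOX1-AS1 just outside (−0.35, limma adjusted p = 0.0511).

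Without vehicle replicate 5, 75 genes (0.677%) were called, 49 higher (0.442%) and 26 lower (0.235%), and 67 of the 95 were among them. The loss fell on 10 of the 56 higher genes and on 18 of the 39 lower ones. In all 10 lost higher genes replicate 5 was the lowest vehicle array, and in 15 of the 18 lost lower genes it was the highest. Over all genes it was the lowest vehicle array in 44% and the highest in 37.6%. Whether the array's 3′ signal caused these differences was not tested. The groups then did not overlap in 0.677% of all genes with 10 pM higher and in 0.822% with 10 pM lower. Another 8 genes were called without it but not with all arrays, among them COL1A2 (0.59 higher, limma adjusted p = 0.0271), IGFBP7 (−0.37, 0.0266) and CLDN1 (−0.31, 0.00326), a collagen chain, an insulin-like growth factor binding protein and a tight junction protein, named after their values were seen.

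**Figure D1:**
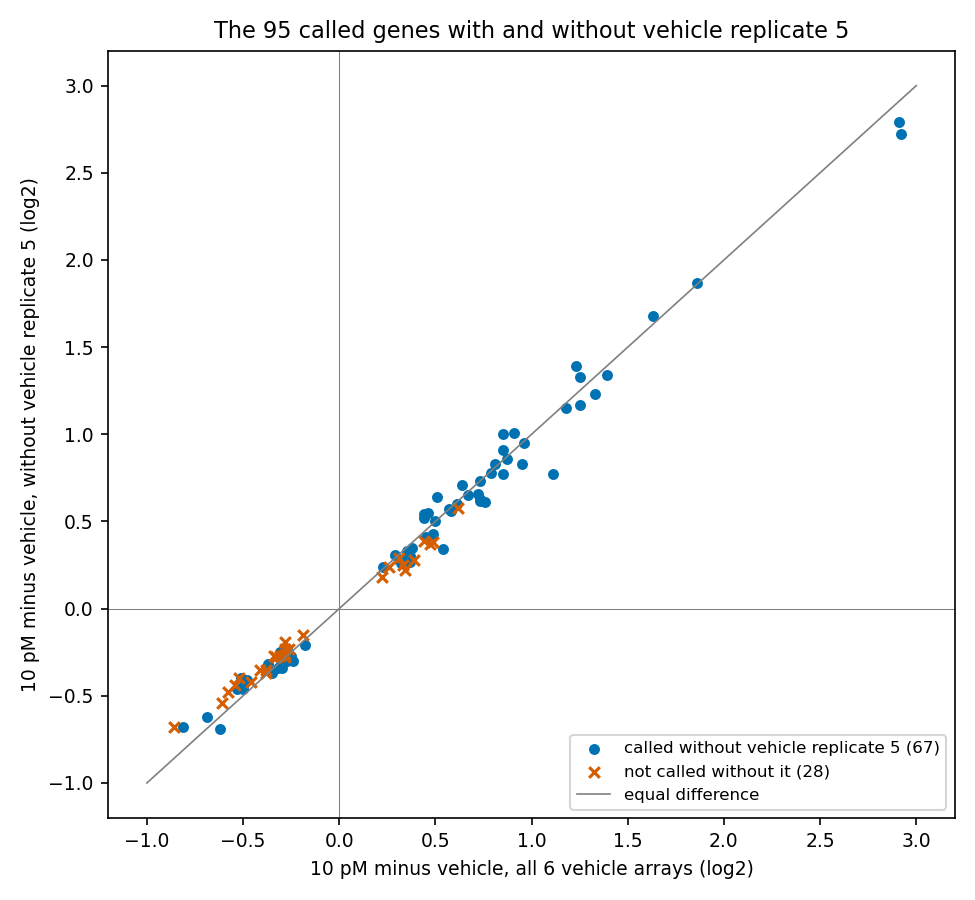
Log2 difference of 10 pM EE minus vehicle for the 95 called genes, with all 6 vehicle arrays on the x axis and without vehicle replicate 5 on the y axis. The line marks equal differences; blue points are the 67 genes still called and orange crosses the 28 that were not, most of them with small differences.

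The rises are described by the genes' roles, beginning with receptors and transcription factors. PGR, the progesterone receptor and a classical target of estrogen receptor alpha, had lowest, median and highest log2 levels of 3.00, 4.09 and 4.68 with vehicle and of 6.54, 7.02 and 7.19 at 10 pM. Every treated array lay above every vehicle array, and the lowest vehicle level was that of replicate 5. The difference was 2.92 ± 0.21 (SE), a 7.56-fold rise (limma adjusted p = 2.57e-14), and without replicate 5 it was 2.72 ± 0.20. A weaker PGR probe set, below the floor in both groups, read 2.05 ± 0.18 and 2.73 ± 0.34 (SD, n = 6).

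GREB1 encodes a cofactor of the estrogen receptor. Its vehicle arrays were tightly grouped, at 4.96, 5.13 and 5.33 (lowest, median, highest), and its treated arrays at 6.11, 6.32 and 6.45. The groups were well apart, with a 2.27-fold rise (1.18 ± 0.11, limma adjusted p = 6.33e-11), and 1.15 ± 0.12 without replicate 5. NRIP1, a corepressor of nuclear receptors, went from 6.97, 7.54 and 7.79 to 8.03, 8.23 and 8.35, again without overlap (0.73 ± 0.11, limma adjusted p = 5.68e-06; 0.63 ± 0.10 without replicate 5). AFF3, a nuclear protein of the AF4 family, lay at 6.09 to 6.47 on treated arrays. On 5 vehicle arrays AFF3 read 5.13 to 5.84, and on replicate 5 it read 3.47, so that the difference of 1.11 ± 0.21 (limma adjusted p = 0.00115) came down to 0.77 ± 0.15 without that array (0.00119). AFF3 was not called in a fit of only the 12 arrays (limma adjusted p = 0.383), but was in one of the other 11 (0.00151).

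A basic helix-loop-helix factor and an early growth response factor were also called. HES2, a transcriptional repressor, stood at 6.63, 6.87 and 7.46 with vehicle and at 7.63, 7.88 and 8.05 with EE (0.91 ± 0.11, limma adjusted p = 2.27e-08). Here replicate 5 was the highest vehicle array, and without it the difference was 1.01 ± 0.10. EGR3, a zinc finger factor, was dim, with 2.01, 2.40 and 2.96 in the vehicle group and 2.69, 3.20 and 4.08 at 10 pM. Its groups overlapped and 1 treated array passed the floor, so no fold is given for it, although the fit called it (limma adjusted p = 0.00151). With only the 12 arrays in the fit EGR3 was not called (limma adjusted p = 0.344).

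The receptor itself did not change beyond the spread of its arrays. ESR1, which encodes estrogen receptor alpha, had log2 levels of 8.09, 8.26 and 8.32 with vehicle and of 8.09, 8.26 and 8.33 at 10 pM. The ranges coincided, and the difference was −0.02 with a 95% interval of −0.11 to 0.08 (limma adjusted p = 0.876). No probe set of ESR2, the gene of estrogen receptor beta, exceeded 2.88 on any of the 12 arrays. The list of nuclear receptors and coregulators had 16 measured members, and limma called 0 of them while 3 had an unadjusted p under 0.05 (median difference −0.08).

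Of the called genes that encode secreted factors and ligands, some, such as OLFM1, THBS1, TGFA and NPPC, were higher, and others, such as JAG1 and NRG1, were lower. OLFM1, a secreted glycoprotein with an olfactomedin domain, had vehicle levels of 4.02, 4.54 and 5.89, a broad range, and treated levels of 7.27, 7.71 and 8.05. Its treated arrays all lay far above the vehicle range, at a 7.52-fold rise (2.91 ± 0.26, limma adjusted p = 1.16e-11). THBS1, a matrix glycoprotein known to activate latent TGF-beta, was bright and went from 8.55, 9.26 and 9.52 to 9.85, 10.18 and 10.24 (0.95 ± 0.11, limma adjusted p = 6.18e-08). TGFA, a ligand of the EGF receptor, was at 8.71, 9.22 and 9.41 and then at 9.89, 9.96 and 10.10. The treated arrays of TGFA were the more uniform group, and the difference was 0.85 ± 0.09 (limma adjusted p = 2.12e-09). NPPC, the precursor of C-type natriuretic peptide, was below the floor on all 12 arrays, at means of 2.18 ± 0.29 and 3.43 ± 0.37 (SD, n = 6). Without replicate 5 the differences were 2.79 for OLFM1, 0.83 for THBS1 and 0.77 for TGFA, and each was called. The fit called NPPC (limma adjusted p = 9.07e-06), and no fold is given because neither group was measured above the floor.

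**Figure D2:**
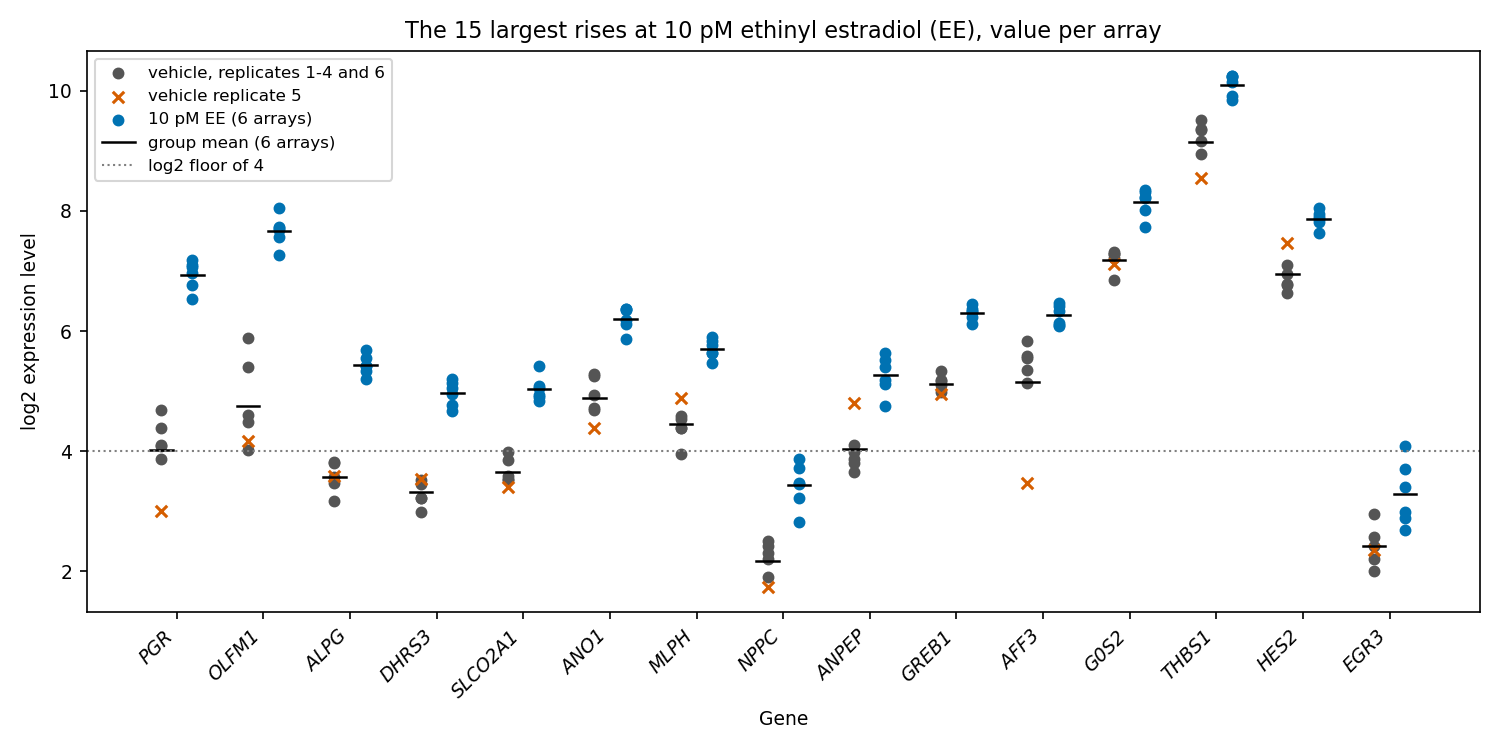
Log2 level of the 15 largest rises on each of the 12 arrays: grey points are vehicle replicates 1 to 4 and 6, orange crosses vehicle replicate 5, blue points the 6 arrays at 10 pM EE, and black bars the group means. The dotted line is the floor of 4; PGR and OLFM1 show the widest gaps between groups, and ANPEP and EGR3 the overlap described in the text.

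Enzymes and transporters come next. ALPG, a placental-like alkaline phosphatase, was at 3.18, 3.59 and 3.83 with vehicle, all under the floor, and at 5.20, 5.42 and 5.68 with EE. It was therefore at least 2.71-fold higher, with a fitted difference of 1.86 ± 0.12 (limma adjusted p = 1.51e-15; 1.87 without replicate 5). A second ALPG probe set, under the floor on all 12 arrays, did not show this, at 2.85 ± 0.24 and 2.78 ± 0.30 (SD, n = 6). The other 3 alkaline phosphatase genes looked for, ALPP, ALPI and ALPL, had probe sets that stayed under the floor on all 12 arrays. The genes ALPG and ALPP have very similar sequences, and the ALPG signal may include RNA of its relative.

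DHRS3, which reduces retinal to retinol, was below the floor on all vehicle arrays (2.99, 3.34 and 3.54) and above it on all treated ones (4.67, 5.00 and 5.20), at least 1.95-fold higher (limma adjusted p = 2.92e-13). SLCO2A1, the prostaglandin transporter, did likewise (3.41, 3.57 and 3.99 against 4.84, 5.00 and 5.42), at least 2.06-fold higher (limma adjusted p = 4.23e-12). In both genes the treated arrays were clear of the vehicle range. Of the other measured members of their lists, none passed: 7 in retinoid metabolism, such as RDH11 (difference 0.02), and 8 among prostaglandin genes, such as PTGES3 (0.15, and 0.03 without replicate 5).

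ANO1, a calcium-activated chloride channel, moved from 4.38, 4.83 and 5.29 to 5.87, 6.26 and 6.37, a 2.51-fold rise (limma adjusted p = 1.90e-10). CA12, a membrane-bound carbonic anhydrase, moved from 5.98, 6.11 and 6.54 to 6.56, 6.79 and 7.01 (0.58 ± 0.12, limma adjusted p = 0.00526). ANO1's groups were separate, and those of CA12 nearly touched. CA12 was not called with only the 12 arrays in the fit. These were the 2 called members of 13 measured ion channels and carbonic anhydrases (median 0.05), where CLIC4, for instance, differed by 0.14 (0.05 without replicate 5).

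MLPH, or melanophilin, which links vesicles to myosin, rose 2.38-fold, from 3.95, 4.47 and 4.89 to 5.47, 5.70 and 5.90 (limma adjusted p = 5.87e-12). Replicate 5 was its highest vehicle array. ANPEP, or aminopeptidase N, read 3.65, 3.93 and 4.80 with vehicle and 4.76, 5.29 and 5.63 with EE. Its groups overlapped through replicate 5 alone, at 4.80, and the difference went from 1.23 ± 0.16 (limma adjusted p = 7.30e-07) to 1.39 ± 0.15 without that array. G0S2, an inhibitor of the triglyceride lipase ATGL, went from 6.85, 7.25 and 7.31 to 7.74, 8.22 and 8.34, a 1.95-fold rise without overlap (limma adjusted p = 9.44e-08). CAPS, the calcium-binding calcyphosine, went from 8.01, 8.25 and 8.59 to 8.94, 9.09 and 9.34 (0.85 ± 0.08, limma adjusted p = 1.90e-10).

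Several moderate rises are added here after their values were seen. EPB41L2, a linker of membrane and cytoskeleton, lay at 8.76 to 8.94 and at 9.32 to 9.53 (0.57 ± 0.05, limma adjusted p = 2.17e-12). DEPTOR, an inhibitor of the kinase mTOR, lay at 8.80 to 9.39 and at 9.65 to 9.93 (0.72 ± 0.07, limma adjusted p = 6.33e-11). Its lowest vehicle array was replicate 5, and without it the difference was 0.66 ± 0.06. In both genes the groups were apart. PIM1, a serine/threonine kinase, and SLC6A6, the taurine transporter, also rose without overlap, by 0.81 ± 0.11 and 0.67 ± 0.07 (limma adjusted p = 8.84e-07 and 2.05e-10). The vehicle mean of PIM1 was 3.95, and among its vehicle arrays replicate 5 alone, at 4.05, passed the floor.

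The 21 higher genes called under every alternative run, 25 in all with single arrays left out, included PGR, OLFM1, ALPG, DHRS3, SLCO2A1, ANO1, MLPH, NPPC, GREB1, G0S2, THBS1, HES2, CAPS, TGFA, PIM1, NRIP1, DEPTOR, SLC6A6, EPB41L2 and POC1B. Of the lower genes, 0 were called under every alternative. A fit of only the 12 arrays called 33 genes, 27 higher and 6 lower. The 6 were JAG1, MEOX1, NTNG1, S100A10, SMIM5 and TPM1, so the other falls against vehicle described below were not called in it.

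Promoter sequences were searched for the estrogen response element, an inverted repeat of 5-base arms. Of the 56 higher genes 41, and of the 39 lower genes 28, had a promoter in the RefSeq table for GRCh38.p14, a window of 250 bases before and 50 after the start. The full element, GGTCA and TGACC with 3 free bases between them, reads the same on both strands. It was in 0 of the 41 and 0 of the 28 windows, and in 18 of all 27305 (0.0659%). A single arm, GGTCA or its reverse complement TGACC, was in 13 of the 41 (31.7%) and 4 of the 28 (14.3%), beside 33.9% of the 9193 promoters of genes tested and 37.7% of all promoters. Of those 9193 promoters 1 held the full element (0.0109%). The arm was sought on both strands, and a full element would also hold arms. The 250 bases before the start are shown for the 3 largest rises with an arm there, chosen after the counts were seen, since they are among the strongest changes. Each runs 5′ to 3′ on the gene's strand with the arms in capitals. They lie at chr11:101129078-101129327 (minus strand) for PGR, chr2:232406594-232406843 (plus) for ALPG and chr2:100142591-100142840 (minus) for AFF3.
PGR: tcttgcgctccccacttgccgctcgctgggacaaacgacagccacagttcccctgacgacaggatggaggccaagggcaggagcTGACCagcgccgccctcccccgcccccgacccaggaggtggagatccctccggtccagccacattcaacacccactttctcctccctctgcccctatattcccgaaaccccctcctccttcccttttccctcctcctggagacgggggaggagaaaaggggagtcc
ALPG: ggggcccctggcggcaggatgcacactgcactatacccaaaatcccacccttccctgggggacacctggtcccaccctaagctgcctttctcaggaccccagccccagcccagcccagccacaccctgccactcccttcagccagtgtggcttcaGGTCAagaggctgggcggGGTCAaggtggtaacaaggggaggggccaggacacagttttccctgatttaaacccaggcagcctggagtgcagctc
AFF3: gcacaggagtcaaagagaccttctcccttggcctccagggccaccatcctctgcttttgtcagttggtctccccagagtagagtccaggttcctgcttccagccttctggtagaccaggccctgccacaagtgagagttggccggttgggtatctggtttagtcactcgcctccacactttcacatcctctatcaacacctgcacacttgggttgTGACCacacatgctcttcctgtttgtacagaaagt
The first arm lies 166 bases before the start in PGR, 95 in ALPG and 35 in AFF3. A match is a description of letters, not a binding site.

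Falls at 10 pM were smaller and closer to the spread of the arrays. They are again described by role, beginning with adhesion molecules and other proteins of the cell surface. L1CAM, a neural and epithelial adhesion molecule, read 3.86, 4.60 and 5.49 with vehicle and 3.44, 3.77 and 4.09 with EE, where 5 of 6 arrays were under the floor. The highest vehicle value of L1CAM was that of replicate 5, and the groups overlapped. Its difference was −0.86 ± 0.20 (limma adjusted p = 0.0118); it was −0.68 ± 0.19 (0.0831) without vehicle replicate 5, and the call was also lost without 10 pM replicate 5.

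NTNG1, or netrin-G1, a membrane-anchored guidance molecule, went from 4.81, 5.28 and 5.45 to 4.45, 4.54 and 4.65. Its groups did not overlap, and replicate 5 was its lowest vehicle array. The difference of −0.62 ± 0.13 (limma adjusted p = 0.00239) was −0.69 ± 0.13 (0.000557) without that array. SMIM5, a small membrane protein, was likewise apart between groups, at 4.53, 4.89 and 5.21 against 4.01, 4.15 and 4.34 (−0.69 ± 0.13, limma adjusted p = 0.00149). CGNL1, or paracingulin of epithelial junctions, overlapped between groups (4.66 to 5.48 against 3.99 to 4.87). The fall of CGNL1 by 0.61 (limma adjusted p = 0.0314) lost its call without vehicle replicate 1, 3 or 5 or 10 pM replicate 3 or 5 (highest adjusted p = 0.156).

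CXCR4, the receptor of the chemokine CXCL12, overlapped as well (4.67 to 5.66 against 4.22 to 4.82) and lost its call without any of 6 arrays. Those were vehicle replicates 1, 5 and 6 and 10 pM replicates 3, 5 and 6, with a highest limma adjusted p of 0.164 against 0.0349 with all arrays. PROM2, or prominin 2 of membrane protrusions, read 5.77, 5.99 and 6.60 and then 5.32, 5.53 and 5.75. Its groups were barely separate, and its fall by 0.52 (limma adjusted p = 0.0114) was not called without vehicle replicate 5 (−0.40, 0.0825). Of 24 measured junction and adhesion genes, L1CAM and CGNL1 were lower and ITGA6, a laminin-binding integrin chain, was higher (0.44 ± 0.10, limma adjusted p = 0.0126). ITGA6 lost its call without vehicle replicate 5 or 10 pM replicate 1, 2 or 3 (highest 0.0807); without vehicle replicate 5 the counts were 0 higher and 1 lower.

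Structural genes of the epithelium and the matrix showed single falls. KRT80, a type II keratin, went from 4.87, 5.33 and 6.02 to 4.23, 4.59 and 4.89, with 1 treated array reaching the vehicle range (−0.81 ± 0.16, limma adjusted p = 0.00209; without replicate 5 −0.68, 0.0154). It was the 1 called member of 7 measured keratins; KRT18 and KRT8 differed by −0.05 and −0.14. COL1A1, the main chain of type I collagen, overlapped between groups (8.31 to 9.31 against 7.89 to 8.48). Its fall by 0.58 (limma adjusted p = 0.0457) lost its call without any of 8 arrays, vehicle replicates 2 to 5 and 10 pM replicates 3 to 6. The other chain of that collagen, COL1A2, ran the other way (0.52 ± 0.14, limma adjusted p = 0.0596). COL1A2 was called higher without vehicle replicate 1 or 5 or 10 pM replicate 1 (limma adjusted p = 0.0403, 0.0271 and 0.0391). Among 21 measured collagens and matrix genes 1 was lower and 1 higher, COL9A3 (0.62 ± 0.15, limma adjusted p = 0.0312), which 5 of 6 treated arrays showed. COL9A3 lost its call without any of 8 arrays, vehicle replicates 3, 4 and 5 and all at 10 pM but replicate 4 (highest 0.0994).

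**Figure D3:**
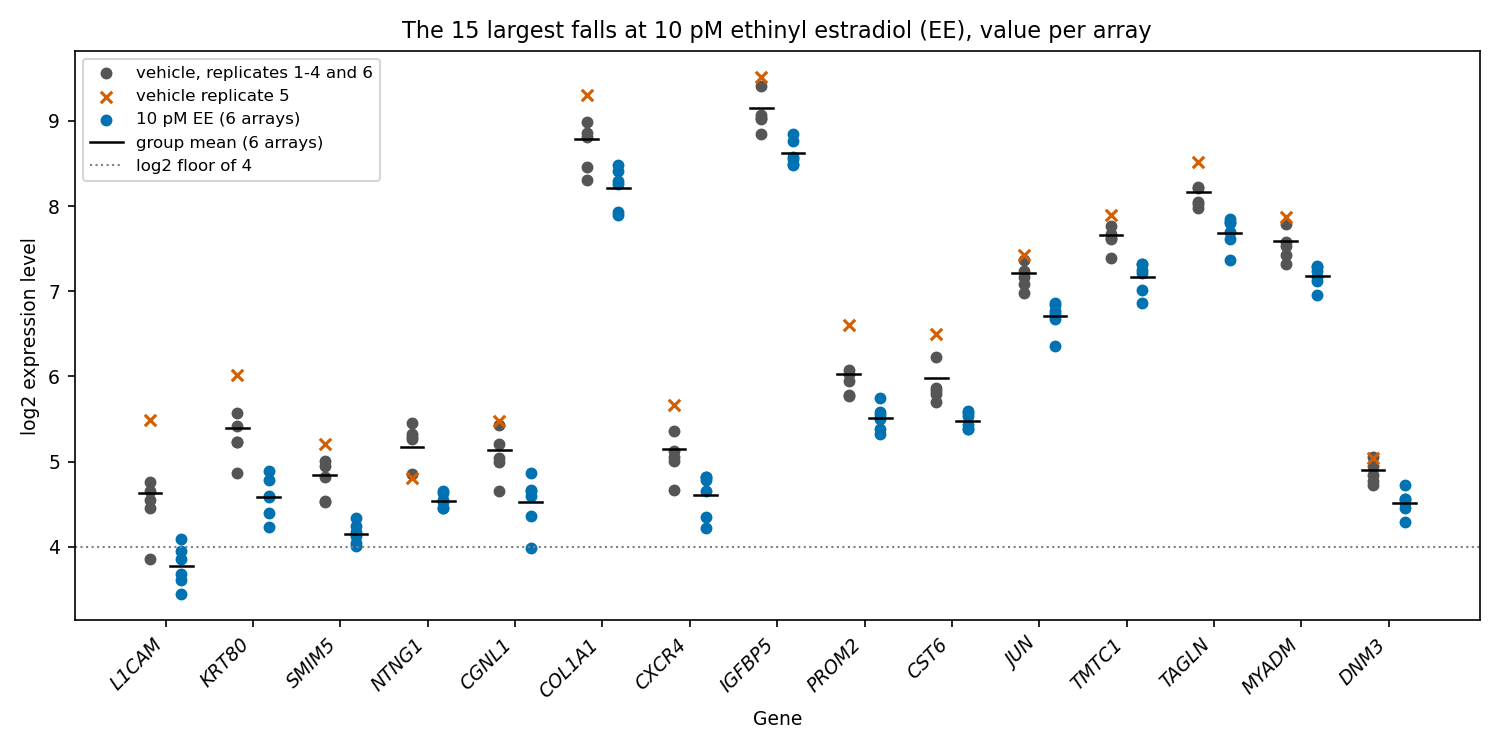
Log2 level of the 15 largest falls on each of the 12 arrays, with vehicle replicates 1 to 4 and 6 in grey, vehicle replicate 5 as orange crosses, 10 pM EE in blue and group means as bars. The gaps are smaller than among the rises, and vehicle replicate 5 is the highest vehicle array in most of the genes shown, NTNG1 being an exception.

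Lower genes of growth factor signalling and transcription included IGFBP5, IGFBP3, JUN and JAG1. IGFBP5, an insulin-like growth factor binding protein, was at 8.85, 9.05 and 9.52 with vehicle and at 8.48, 8.57 and 8.85 with EE, so that the groups met at their edges. The difference was −0.53 ± 0.10 (limma adjusted p = 0.00112), and −0.46 (0.00653) without replicate 5. IGFBP3, of the same family and far brighter, read 12.09, 12.27 and 12.34 and then 11.99, 12.07 and 12.16 (−0.18 ± 0.04, limma adjusted p = 0.0297). IGFBP3 lost its call without vehicle replicate 1, 4 or 6 or 10 pM replicate 2, 3 or 6 (highest 0.0989). These were the 2 called members of 16 measured IGF and FGF genes, whose median was −0.18.

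JUN, a subunit of the AP-1 factor, lay at 6.98, 7.21 and 7.43 with vehicle and at 6.36, 6.75 and 6.86 with EE, without overlap. Its difference of −0.50 ± 0.08 (limma adjusted p = 0.000111) was −0.46 (0.000664) without vehicle replicate 5, and it was not called with only the 12 arrays in the fit (0.0716). JUN and EGR3 were the called members, 1 in each direction, of 15 measured immediate early genes. JAG1, a ligand of Notch receptors, had the smallest adjusted p of the falls. It went from 9.82, 9.93 and 10.06 to 9.40, 9.60 and 9.66, a fall by 0.36 ± 0.05 with and without replicate 5 (limma adjusted p = 2.66e-06 and 6.83e-06). The other 10 measured Notch genes did not pass; NOTCH2 differed by −0.12 and HES1 by −0.22, the latter being called without the 4 arrays of high 3′ signal, vehicle replicate 5 and 1 array each at 0.3, 3 and 1000 pM (limma adjusted p = 0.0262).

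Of the targets of YAP or of serum response factor, TAGLN, TPM1 and AJUBA, which act at the actin cytoskeleton, were lower. TAGLN, or transgelin, went from 7.98, 8.13 and 8.52 to 7.37, 7.75 and 7.85 (−0.48 ± 0.11, limma adjusted p = 0.00856). TPM1, a tropomyosin, went from 11.04, 11.17 and 11.31 to 10.81, 10.93 and 10.95 (−0.27 ± 0.05, limma adjusted p = 0.000967). AJUBA, a LIM protein of junctions, went from 9.33, 9.50 and 9.66 to 9.06, 9.25 and 9.31 (−0.25 ± 0.06, limma adjusted p = 0.0400). None of these overlapped between groups. TAGLN lost its call without 10 pM replicate 1 (0.0503), AJUBA without any of 8 arrays (vehicle 1, 2, 4 or 6, or 10 pM 1, 2, 3 or 5, highest adjusted p 0.154), and a dimmer TPM1 probe set differed by 0.12 the other way.

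These were the 3 called of 17 measured members, beside 0.352% of all genes called lower, and 0 were higher. The list's median was −0.27 and 16 of the 17 differences were below 0, while the median of all genes was −0.01. The list was chosen with earlier results of these data known. Of the members that did not pass, CCN1 differed by −0.52 ± 0.15 (limma adjusted p = 0.113) and VCL by −0.08 (0.507). Without replicate 5 the list's count was the same and its median −0.25, with CCN1 at −0.59 (0.0606) and VCL at −0.17 (0.0541). TAGLN, TPM1 and AJUBA all lost their calls when probe sets were averaged. TAGLN and AJUBA also lost them with only the compared groups in the fit. Without the 4 arrays of high 3′ signal the list had 6 lower genes, CCN1 and VCL among them (limma adjusted p = 0.0341 and 0.0263). CCN1 was also called with array weights (0.0235), among other alternatives, and without vehicle replicate 3 (0.0494).

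Of 9 measured EGF family and ERBB receptor genes TGFA was higher and NRG1, a ligand of ERBB3, lower (−0.31 ± 0.08, limma adjusted p = 0.0340). NRG1 was not called without vehicle replicate 1, 2, 4 or 5 or 10 pM replicate 1, 2, 3 or 5, the highest value being 0.120. The receptors EGFR, ERBB2 and ERBB3 did not pass, at −0.07, −0.40 and 0.02; without replicate 5 they were at −0.31, −0.11 and 0.01 and did not pass. EGFR was called lower at −0.31 without the 4 arrays of high 3′ signal (limma adjusted p = 0.0146), with array weights (0.0332) and with only the other 11 arrays in the fit (0.0255). In the TGF-beta pathway, with 19 measured members, THBS1 was higher and SMAD6, an inhibitory Smad, lower (−0.32 ± 0.08, limma adjusted p = 0.0320). SMAD6 lost its call without any of vehicle replicates 2 to 4 or 10 pM replicates 2 to 5 (highest 0.0981). PLK2 and TP53INP1 were the 2 lower of 20 measured p53 targets, by 0.24 and 0.28 on the log2 scale (limma adjusted p = 0.0110 and 0.0314). PLK2, a polo-like kinase, was not called without vehicle replicate 2 (0.0611), and TP53INP1, a stress-induced p53 partner, without vehicle replicate 1, 2, 4 or 5 or 10 pM replicate 5 or 6 (highest 0.170).

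The remaining falls named here were in CST6, a cystatin protease inhibitor, TMTC1, a mannosyltransferase of the endoplasmic reticulum, MYADM, a membrane protein of lipid rafts, and DNM3, a dynamin. CST6 (−0.51) and TMTC1 (−0.50) kept their calls without replicate 5 (limma adjusted p = 0.0403 and 0.0132), and MYADM (−0.41) and DNM3 (−0.38) did not (0.150 and 0.140). MYADM also lost its call without vehicle replicate 1 or 4 or 10 pM replicates 2 to 5, and DNM3 without vehicle replicate 1, 2 or 6 or any 10 pM array but replicate 2 (highest 0.164). In all 4 genes each treated array was below the vehicle mean.

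The members were next counted over gene lists, which were chosen with earlier results of these data known. The list of estrogen-responsive genes, 27 measured of 40, held 8 higher genes, PGR, OLFM1, MLPH, GREB1, EGR3, TGFA, NRIP1 and CA12, and 1 lower gene, IGFBP5, beside 0.506% and 0.352% of all genes tested. Its median difference was 0.05, and the other 18 members did not pass. XBP1 differed by 0.05 and MYC by 0.47 (limma adjusted p = 0.859 and 0.0645), and by −0.17 and 0.27 without replicate 5. The counts were the same without replicate 5. TFF1 and TFF3, trefoil peptides known as estrogen targets in breast cells, had no level above 2.50 and 3.72 on the 12 arrays.

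In 19 lists limma called 0 members, with 45 of their 312 distinct genes at an unadjusted p under 0.05 (14.4%, against 12.8% of all genes). The unadjusted counts of lists were made with all arrays only. Over all genes such a p was found in 1414 with all arrays and in 766 without vehicle replicate 5. Proliferation genes were among these 19 lists. Of 34 measured cell cycle genes and 31 DNA replication genes, 2 and 3 had an unadjusted p under 0.05, and the medians were 0.00 and 0.01. TOP2A and CDK1, of mitosis and its entry, differed by 0.04 and 0.09, and PCNA by 0.15 (0.05 without replicate 5). The proliferation marker MKI67 read 9.06, 9.18 and 9.59 and then 9.05, 9.32 and 9.45, with broad overlap (limma adjusted p = 0.760). Cyclin-dependent kinase inhibitors (7 measured), MYC and ribosome genes (23), the Wnt pathway (20) and ERK feedback genes (13) likewise had no call. An unadjusted p under 0.05 was found in 0, 6, 3 and 2 of them, and the 6 MYC and ribosome genes were all higher. Without the 4 arrays of high 3′ signal 1 MYC and ribosome gene was called higher and 1 ERK feedback gene lower. DUSP6, a phosphatase that limits ERK, differed by 0.25 (limma adjusted p = 0.156), and was called when its probe sets were averaged (0.36, 0.0429).

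Metabolic and stress lists also had no call: cholesterol and fatty acid synthesis (23 measured), hypoxia and glycolysis (25), the unfolded protein response (21), heat shock (16), NRF2 targets (13), NF-kB targets (5), the interferon response (13) and steroid-converting enzymes (15). Among these lists the share at an unadjusted p under 0.05 ran from 9.52% in the unfolded protein response to 30.8% in the interferon response, beside 12.8% of all genes. In the interferon response those were 4 genes, all lower. Examples of members without a call were FDPS at 0.04, HSPA5 at 0.06 and AKR1C1 at −0.24 (−0.15 without replicate 5). No call was made either in secretory-phase genes (13), Mullerian factors (7), epithelial markers (15) and 10 reference genes, with ACTB at −0.11 and GAPDH at 0.04. Without the 4 arrays of high 3′ signal 1 secretory-phase gene was called lower. Against the pooled arrays at 0.1 and 0.3 pM, 1 secretory-phase gene was called higher, and 1 epithelial marker and 1 cell cycle gene lower. In these bulk samples fewer cells of a type and less RNA per cell cannot be told apart. Of 4 measured ciliated cell markers CAPS rose, while FOXJ1, which defines that lineage, was at 4.14 ± 0.71 and 3.61 ± 0.19 (SD, n = 6). Of 5 measured stromal markers 1 was lower, COL1A1, and without replicate 5 it was COL1A2 that was called, as higher.

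**Figure D4:**
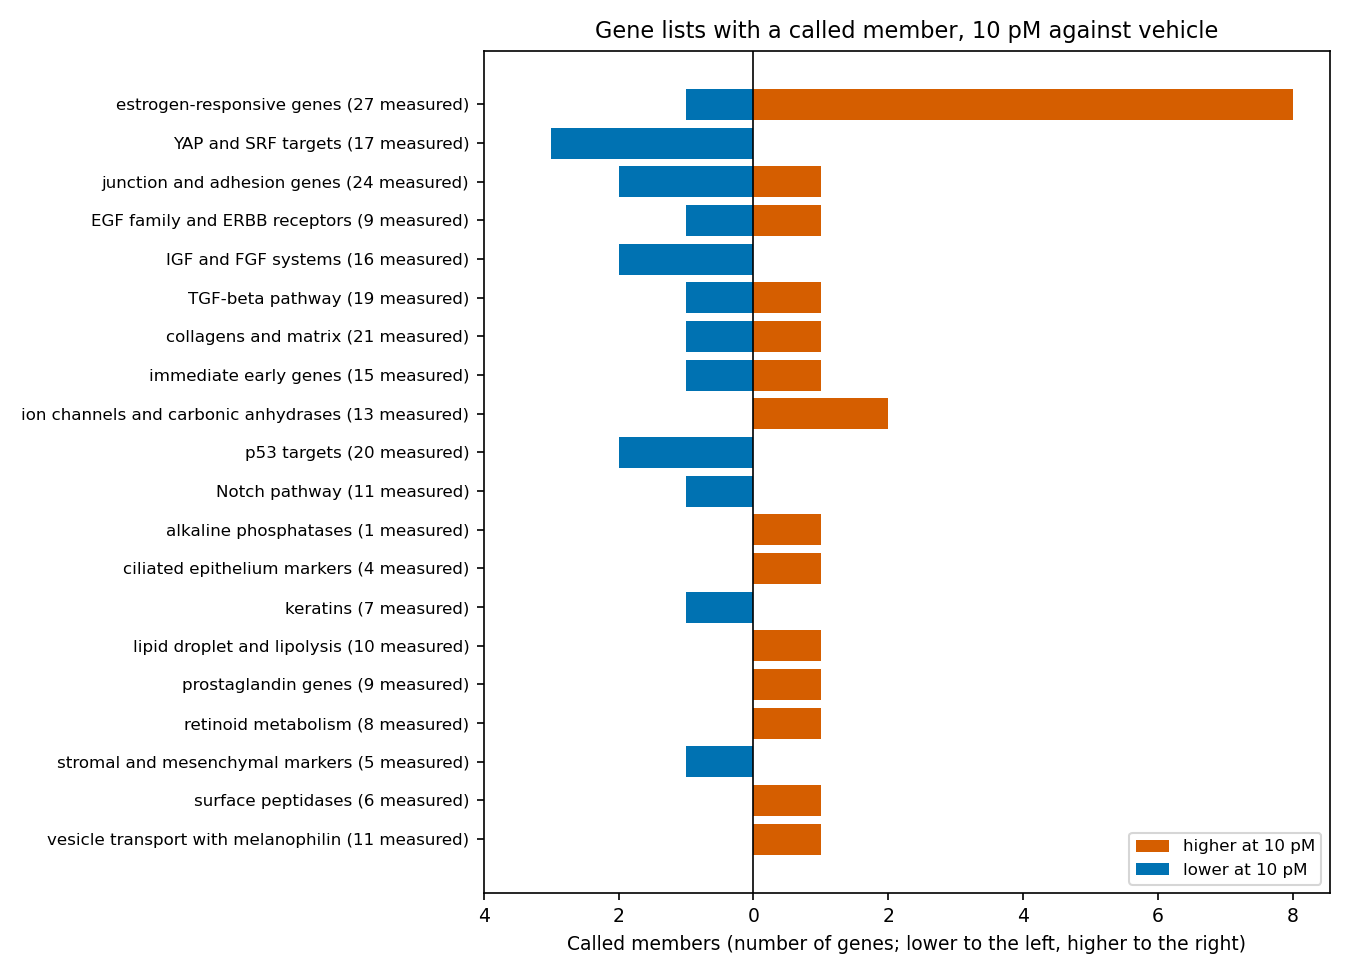
Number of called genes in each gene list with at least 1 call, lower genes to the left and higher genes to the right, with the number of measured members in brackets. The estrogen-responsive list has the most, 8 higher and 1 lower of 27, and the YAP and SRF targets have 3 lower of 17.

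A baseline without vehicle arrays was formed by the 13 arrays at 0.1 and 0.3 pM. It shares the 10 pM arrays with the comparison above, so its values stand beside the others and are no independent support. Against it 101 genes (0.912%) were called by limma, 63 higher (0.569%) and 38 lower (0.343%); leaving vehicle replicate 5 out of the estimate of the spread gave 141. PGR differed by 2.75 ± 0.18 there and by 2.92 ± 0.21 against vehicle, OLFM1 by 2.83 ± 0.22 and 2.91 ± 0.26, and GREB1 by 1.17 ± 0.10 and 1.18 ± 0.11. AFF3 differed by 0.84 ± 0.18, nearer to its value without vehicle replicate 5.

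Among the falls, NTNG1 was lower by −0.66 ± 0.11 against this baseline (limma adjusted p = 4.97e-05), SMIM5 by −0.68 ± 0.11 (9.90e-05) and L1CAM by −0.71 ± 0.17 (0.0158). JUN differed by −0.42 ± 0.07 and JAG1 by −0.32 ± 0.04 (limma adjusted p = 0.000144 and 7.86e-07). COL1A1 (−0.43) and CXCR4 (−0.40) were not called (0.130 and 0.103). MUC15, a membrane mucin, fell here by 0.63 ± 0.13 (limma adjusted p = 0.00164), though its 10 pM arrays were all under the floor; against vehicle its difference was −0.44 (0.179).

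The levels at 10 pM lay between those at 3 pM and those at 100 pM in PGR (5.63, 6.94 and 8.83), GREB1 (5.62, 6.30 and 7.63) and JUN (7.05, 6.71 and 6.34), for instance. Against 3 pM, limma called 17 genes (0.153%), 16 higher (0.144%) and 1 lower (0.00903%). The steps were 1.31 for PGR (limma adjusted p = 0.000299), 1.14 for OLFM1 (0.0442), 1.01 for ALPG, 0.92 for DHRS3, 0.73 for SLCO2A1, 0.71 for MLPH, and 0.68 each for ANO1 and GREB1. JAG1, the 1 lower gene, differed by −0.23 (limma adjusted p = 0.0240), but was not called with the replicate number as a block (0.0711). NPPC, EGR3 and SLC6A6 lost their calls in that fit too (0.117, 0.177 and 0.0863), and DEPTOR (0.26) was called in it alone (0.177 without the block and 0.0377 with it).

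From 10 to 100 pM limma called 109 genes (0.984%), 83 higher (0.749%) and 26 lower (0.235%), and 914 with the replicate number as a block, 454 higher and 460 lower. Without the 4 arrays of high 3′ signal it called 226, 142 higher and 84 lower. GREB1 rose by a further 1.33 ± 0.11 and PGR by 1.89, while SLCO2A1 differed by 0.41 (limma adjusted p = 0.105, and 0.000700 with the block) and TGFA by 0.31 (0.108, and 4.57e-09 with the block). Among the lower genes, JAG1 fell by a further 0.26 and JUN by 0.36 (limma adjusted p = 0.00133 and 0.0123). IGFBP5 fell by 0.34 with the block only (limma adjusted p = 0.108 without it and 2.10e-07 with it). KRT80 (−0.55), CGNL1 (−0.52), L1CAM (−0.43) and NTNG1 (−0.35) likewise were called lower only with the block (limma adjusted p = 0.00134, 0.00138, 0.0276 and 0.0264), and so were AFF3 (0.28) and CA12 (0.43) as higher (0.00136 and 1.91e-06).

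Against 10 pM, 201 genes (1.81%) differed at 1000 pM, 130 higher (1.17%) and 71 lower (0.641%). Leaving vehicle replicate 5 out of the estimate of the spread gave 260. Large further rises were in PGR (2.22 ± 0.21), DHRS3 (2.20 ± 0.13) and ANPEP (1.89 ± 0.16), the highest of their limma adjusted p-values being 7.78e-11. EGR3 and NPPC, whose means were under the floor at 10 pM, lay above it at 1000 pM, at 5.62 ± 0.37 and 5.20 ± 0.48 (SD, n = 6), and both were called (limma adjusted p = 1.62e-14 and 9.15e-10). In SLCO2A1 and AFF3 the step from vehicle to 10 pM was the larger one: SLCO2A1 was at 3.65, 5.04 and 5.38 with vehicle, 10 pM and 1000 pM, and AFF3 at 5.15, 6.26 and 6.38. In the fit without the block their further differences to 1000 pM did not pass, with 95% intervals of 0.10 to 0.58 and of −0.30 to 0.55 (limma adjusted p = 0.244 and 0.999).

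The 5 largest falls from 10 to 1000 pM were in genes not called against vehicle at 10 pM in the fit of all arrays. SMR3B, a salivary-type secreted protein, was at 8.40 ± 0.37, 8.41 ± 0.39 and 7.27 ± 0.27 (SD, n = 6) with vehicle, 10 pM and 1000 pM. CCN2, or connective tissue growth factor, was at 7.96, 7.55 and 6.70. SIGLEC15, a sialic acid-binding lectin, was at 6.28, 6.13 and 5.34, while the long non-coding RNA BLACAT1 (4.59, 4.53 and 3.64) and the kinase ALPK2 (4.60, 4.50 and 3.72) ended under the floor. Each of these genes differed between 10 and 1000 pM, the highest limma adjusted p being 0.00150 for CCN2. At 10 pM CCN2 differed from vehicle by −0.40 with a 95% interval of −0.76 to −0.05 (limma adjusted p = 0.352), and by −0.57 without vehicle replicate 5 (0.122). CCN2 was called lower against vehicle under 4 alternatives: array weights (−0.60, limma adjusted p = 0.00154), without 4 or without 2 arrays of high 3′ signal (0.00886 and 0.0283), and only the other 11 arrays (0.0137).

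**Figure D5:**
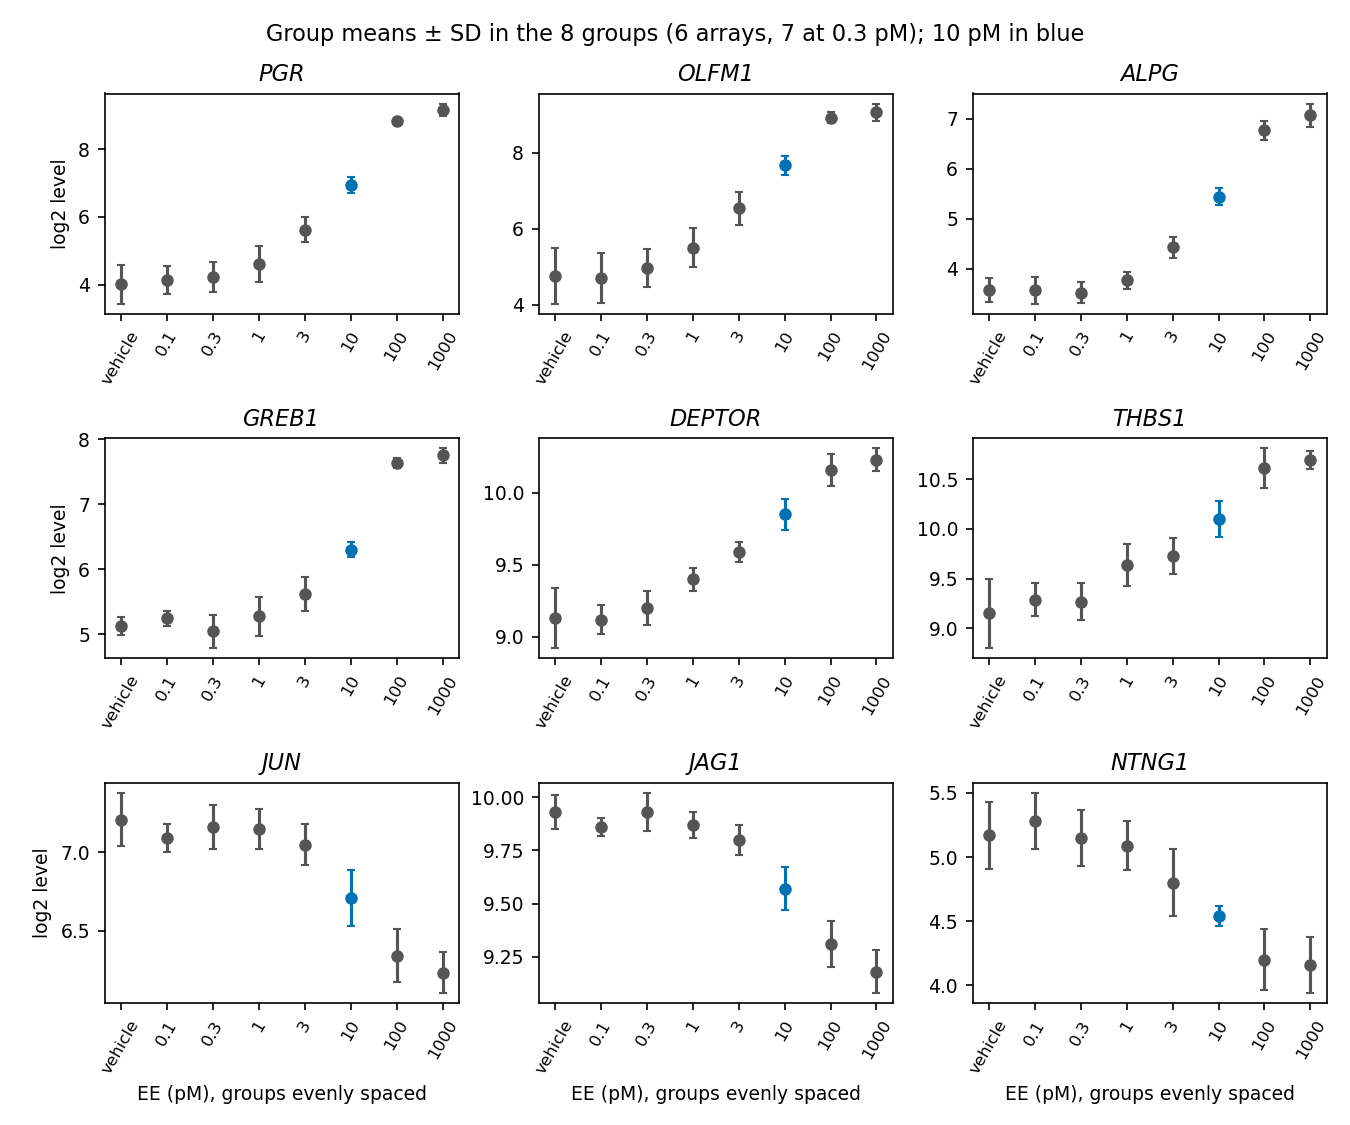
Mean log2 level ± SD of 9 genes in the 8 groups (6 arrays each, 7 at 0.3 pM), with 10 pM EE in blue; groups are evenly spaced on the x axis and each panel has its own y range. The 6 rising genes lie at intermediate levels at 10 pM, such as PGR at 6.94 between 4.02 with vehicle and 9.15 at 1000 pM, and JUN, JAG1 and NTNG1 run downward.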

How the data were processed

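The labels' protocols name the HT HG-U133 Plus PM array of Affymetrix, on which biotin-labelled RNA copies from each sample were read. The values are the deposited log2 expression levels, for which the submitters' processing notes name GCRMA and Partek without versions; background correction, normalization and summarization were the authors' steps. The number of arrays limits the precision.

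Of 54715 probe sets on 49 arrays, 40920 had 1 gene symbol, 864 several and 12931 none, and 40864 were matched to RefSeq of GRCh38.p14. Probe sets above log2 4 on at least 6 arrays entered (22721), and the brightest stood for each of 11075 genes. A gene under the floor on all vehicle arrays is given as "at least N-fold", from group means with the vehicle values set to the floor, and no fold is given where the treated mean is under it too.

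The 8 group means were fitted with limma 3.58.1 (lmFit and eBayes with an intensity trend, R 4.3.3, statmod 1.5.0), with Benjamini-Hochberg adjustment over all genes in each contrast and a threshold of 0.05. The plots and the promoter search used Python 3.11.15, matplotlib 3.10.9, pandas 2.3.3 and numpy 2.4.6. Alternatives changed the filter, prior, normalization, array weights, probe sets, threshold, the set of arrays fitted, and whether the replicate number entered as a block. Leaving out 2 arrays of high 3′ signal, and fitting only 11 arrays, were added after seeing the data.

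Same-numbered arrays deviated together at 10 and 3 pM (correlations of deviations from the group means 0.22 to 0.52) and at 10 and 100 pM (0.271 to 0.505), so the blocked value is given beside such a step printed in the text where it changes the call. The blocked fits of these steps held only the arrays of the compared groups, so block and set of arrays changed together. At 10 and 1000 pM the correlations were −0.04 to 0.397, over 0.1 in 5 of 6 numbers. For that step no blocked values of single genes are given. The labels name no batch.

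Named genes were the 15 largest rises and 15 largest falls that passed, provided all treated arrays lay on 1 side of the vehicle mean, up to 6 called members of each list and 3 others by level, the 5 largest rises and falls against the pooled low concentrations and at 1000 pM, ESR1, ESR2, PGR, GREB1, OLFM1, ALPP, ALPG, MKI67, ACTB and GAPDH, and the genes beside the threshold; others are said to be chosen after their values were seen, as were MYC, NRIP1, POC1B, TFF1 and TFF3. The members and the 41 lists (774 distinct genes, 540 measured) were chosen with earlier results of these data known. A search for promoters with the full response element found none to print, and single arms were marked in its place.

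On simulated arrays drawn from each gene's measured mean and spread (11075 genes, 5 runs, 200 changed genes each), 44.4% of 1.25-fold, 89.6% of 1.5-fold, 98.4% of 2-fold and 100% of 4-fold changes were recovered in 10 pM against vehicle, with 4.59% of calls false. The simulated arrays varied independently with the same spread, and held no outlying array such as vehicle replicate 5. These rates may therefore not hold for the measured arrays.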

Additional observations from a re-analysis of the deposited data

Results flagged for a closer look

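Among 47 genes tested in both groups of 6 arrays (94 groups), 9 arrays stood apart from the other 5 by Dixon's criterion, which chance meets in about 1 in 20 groups. Vehicle replicate 5 accounted for 5 of them: it was lowest in AFF3 (3.47, the others 5.13 to 5.84), ESR1 (8.09, the others 8.25 to 8.32) and GAPDH (12.39, the others 12.58 to 12.64), and highest in MKI67 (9.59, the others 9.06 to 9.20) and PROM2 (6.60, the others 5.77 to 6.07). Replicate 2 at 10 pM was lowest in JUN (6.36, the others 6.68 to 6.86), AJUBA (9.06, the others 9.23 to 9.31) and ACTB (12.34, the others 12.43 to 12.47), and replicate 4 at 10 pM in COL9A3 (5.46, the others 6.14 to 6.36).

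Of 2925 probe sets that entered without a single gene symbol and were left out of the gene tests, 10 (0.342%) were called in a limma fit over all 22721 entering probe sets, 5 higher and 5 lower. The largest differences were 0.81 ± 0.09 (SE) upward and −0.85 ± 0.15 downward (limma adjusted p = 4.56e-09 and 0.000686).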

How the results depend on the processing

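No called gene reversed its sign under the alternatives. Genes not called could change sign, as XBP1 did without vehicle replicate 5. Of the 95 calls, 43 higher and 15 lower held in all 12 fits without 1 array. Leaving out single arrays gave 69 to 145 calls against vehicle, 45 to 64 higher and 24 to 81 lower; the 145, with 81 lower, came without vehicle replicate 6, and the 24 lower without 10 pM replicate 3 or 5. Against the pooled low concentrations the range was 78 to 109, and for 1000 pM against 10 pM 169 to 186.

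Against vehicle (95, 56 higher, 39 lower) the counts were 160 with array weights (79 lower), 154 without the 4 arrays of high 3′ signal (77 lower), 59 at an adjusted p under 0.01 (16 lower), and 33 with only the compared groups in the fit (27 higher, 6 lower). Against the pooled baseline (101) they were 301, 267 and, without 2 of those arrays, 176. For 1000 pM against 10 pM (201) they were 369 with array weights, 303 without the 4 arrays and 133 at 0.01. The cause was not tested. Apart from these, the single arrays above and the replicate block below, the alternatives kept the counts of these 3 comparisons within 1.5 times.

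The replicate numbers of vehicle and 10 pM showed no pairing of the arrays. Deviations of same-numbered arrays correlated at −0.055 to 0.168, over 0.1 in 3 of 6, and 0 of the 6 correlated best with its own number. Vehicle replicate 5 was included in these correlations, and whether it hid a pairing was not tested. As a replicate block over all groups the numbers gave 121 calls, and within the compared groups 22 (21 higher, 1 lower). For 1000 pM against 10 pM the block within groups gave 331. Signal near the floor limits the dimmest genes, such as NPPC and EGR3.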

Other observations

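Of the 95 called genes, 47 had another entering probe set, and of these 78 probe sets 74 differed in the direction of the one that stood for the gene. The other 4 belonged to FBLIM1 (0.00 against −0.30), OSBPL6 (−0.02 against 0.22), TLE1 (0.32 against −0.28) and TPM1 (0.12 against −0.27). The 74 count the sign alone. Some of them hardly differed, such as a probe set each of IGFBP3 (−0.01), PROM2 (−0.01), PLD1 (−0.02), GSAP (0.04) and KCNJ5 (0.04). IGFBP3, PROM2 and CXCR4 were among the genes that lost their calls when probe sets were averaged, as were TAGLN, TPM1 and AJUBA.

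The group means of some called genes did not run in 1 direction over the concentrations. H2BC21, a histone gene, was at 7.15 with vehicle, 6.88 at 10 pM and 6.97 at 1000 pM, and NUFIP1, a nuclear RNA-binding protein, at 7.03, 7.36 and 7.22. Neither differed between 10 and 1000 pM (limma adjusted p = 0.999 for both), so a turn is not shown beyond the spread. NUFIP1 was not called against vehicle without vehicle replicate 5 (limma adjusted p = 0.127). These genes were chosen after their values were seen.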
